A study of Danio rerio with 33 samples.

Results

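The members described here are 10 zebrafish genes of estrogen signalling: the yolk protein genes vtg1, vtg2, vtg3, vtg4, vtg5 and vtg7, the estrogen receptor genes esr1, esr2a and esr2b, and the brain aromatase gene cyp19a1b. They were chosen by symbol in the deposited gene table, which lists 25432 protein-coding genes. A row was found for 9 of the 10, and cyp19a1b was not analysed here. RNA of whole wild-type zebrafish was sequenced after 24 h, from 96 to 120 hours after fertilisation (hpf), in organic extracts of air particle filters. The study asked how particles from the air of transport sites act on developing embryos. Each of the 33 libraries is 1 pool of 10 embryos.

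The exposed groups were 3 airport, 9 harbour, 9 road and 3 subway pools, with 3 mock filter pools and 6 vehicle pools as controls. Airport pools received filters 44 and 48 from the cold season and filter 54 from the warm season, 1 pool each. Harbour pools received filters 32 (1 pool), 36 (4 pools) and 38 (4 pools), and road pools filters 26 (4 pools), 28 (4 pools) and 30 (1 pool), all from the cold season. These 3 kinds of site were in Barcelona. Subway pools all received filter 80, from Valencia. Mock pools received extract of a mock filter, and vehicle pools the solvent control of extracts held in methanol. The strain is not named. Several pools of 1 filter repeat the exposure to 1 extract, not the sampling of air. Pools of 1 filter also carry different second numbers in their titles. No source used here explains it, and whether all pools of a filter had the same dose is not known.

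Libraries came in 2 sequencing rounds. Round 1 held 15 libraries, among them all airport and mock pools, 3 harbour, 3 road and 3 vehicle pools. Round 2 held 18, among them all subway pools. By library number the labels give 3 series, 35, 37 and 38, and series 38 holds the 3 subway pools and harbour 5 but no vehicle pool. Totals ran from 18448718 to 51854033 counts per library, with airport 3 the deepest. The controls vehicle 3, mock 2 and mock 3 stood apart in antiviral genes. The summed level of 4 such genes (mxa, isg15, rsad2 and ifit15) was 6.49 to 8.92 CPM in them and 1.98 to 2.99 CPM in the other 6 mock and vehicle libraries, where CPM is a gene's count scaled to the size of its library. In the 24 exposed libraries the sum was 0.824 to 7.26 CPM. Airport 2 and airport 1 had the highest sums of these, 7.26 and 5.52 CPM, and airport 3 had 3.01 CPM. Airport results are given below with and without vehicle 3, mock 2 and mock 3, for esr2b against vehicle and mock and for vtg7 against vehicle. Other differences are not given without them, apart from fits of round 2 alone, as all of them are of round 1.

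Vitellogenins are the large lipid-carrying precursors of egg yolk. In adult females the liver makes them under estrogen and secretes them, and growing oocytes take them up. Estrogen receptors are nuclear receptors that bind estrogen and act on the transcription of their target genes. In zebrafish, as in other teleosts, 1 receptor is of the alpha type (esr1) and a pair is of the beta type (esr2a and esr2b). Induction of vitellogenin in males and juveniles is a widely used marker of exposure to estrogenic chemicals. Brain aromatase, made by radial glia, forms estrogen from androgen and is itself a known estrogen target in the zebrafish brain.

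Of the 9 measured members, 4 had enough counts for a test (vtg7, esr1, esr2a and esr2b), and 5 did not (vtg1 to vtg5). Over all 33 libraries, esr2b had 4908 counts, esr2a 862, vtg7 644 and esr1 434. The other members had between 4 counts (vtg4) and 159 counts (vtg3). In a gene table of another assembly (GRCz12tu), vtg4, vtg6, vtg7, vtg2 and vtg8 follow each other with 0 coding genes between neighbours, vtg5 is set off from vtg4 by 2 coding genes, and vtg3 lies on another chromosome. No coding gene named vtg1 was found for that assembly. Copies of this family can be alike in sequence, but their sequences were not compared here. How the authors' counting treated reads shared by copies is not stated in any source used here, and counts of single vitellogenins are uncertain for that reason. In whole-embryo pools, a change in the number of cells of a type and a change in RNA per cell cannot be told apart.

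The gene with the most counts among the members, esr2b (ENSDARG00000034181), was higher in embryos exposed to airport extracts. It had 10.1, 10.5 and 10.5 CPM in the airport pools of filters 44, 48 and 54, against 4.35, 5.63, 3.27, 3.19, 2.92 and 4.15 CPM in vehicle pools 1 to 6. Every airport pool lay above every vehicle pool. The share of all genes that separate groups of pools in this way is not given, here or below. The mean was 10.4 ± 0.25 CPM (SD, n = 3) in airport and 3.92 ± 1.01 CPM (SD, n = 6) in vehicle. The difference was 1.47 ± 0.32 (SE) on the log2 scale, or 2.77-fold, with an adjusted p of 8.93e-04 in edgeR's quasi-likelihood test over all 22124 genes tested. Airport extracts changed many genes: 33.5% of the genes tested passed in this comparison, and 1.85% had a higher log2 fold change than esr2b. In round 1 alone, where all airport pools lie, the esr2b difference was 1.22 with an adjusted p of 0.00159.

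**Figure D1:**
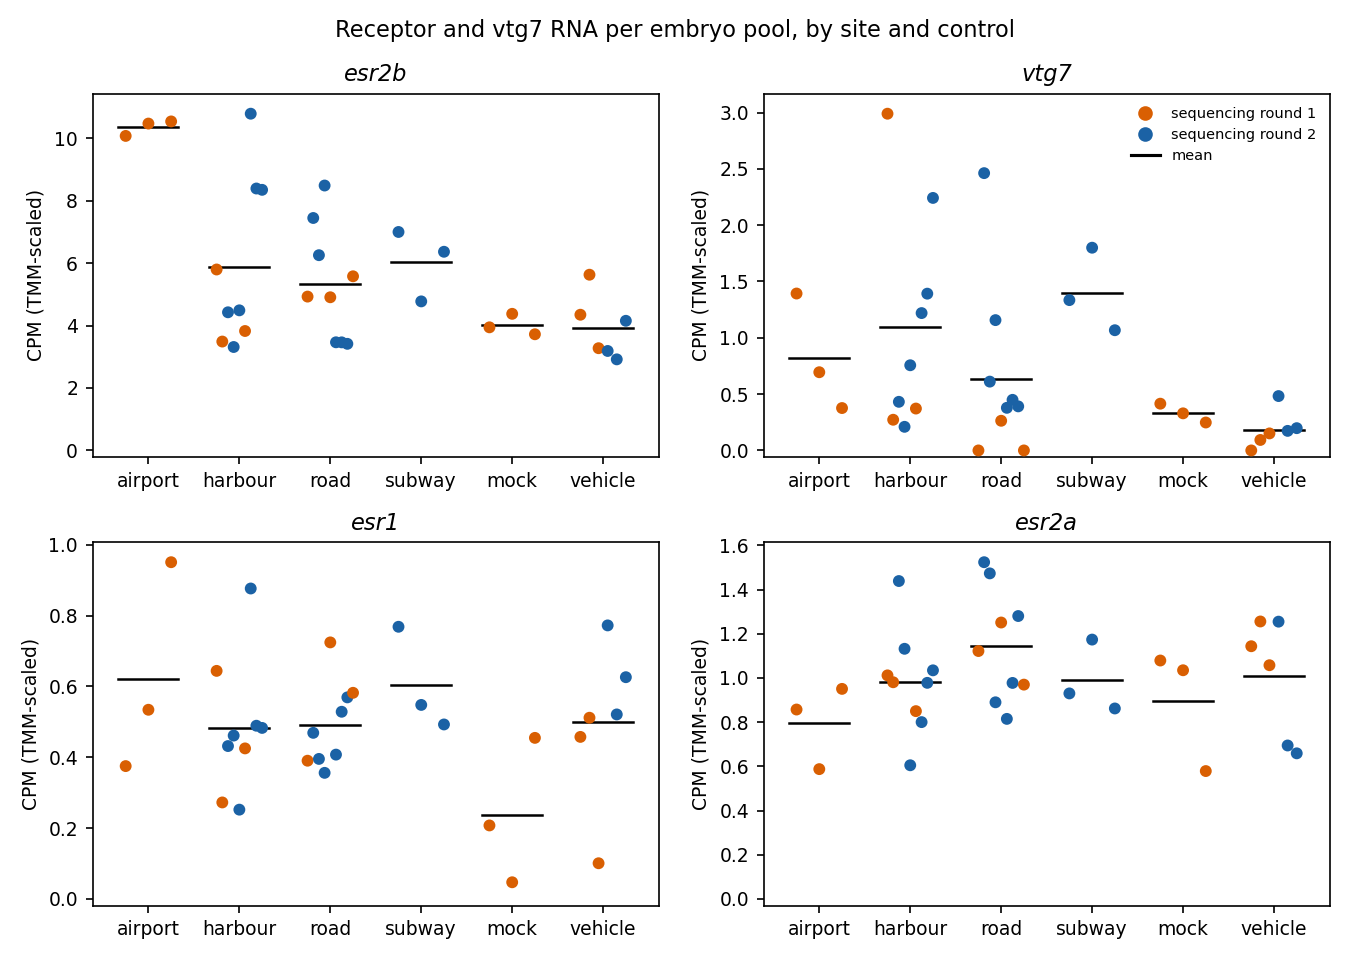
Normalised level (CPM, vertical axis) of esr2b, vtg7, esr1 and esr2a in each of the 33 embryo pools, grouped by site and control on the horizontal axis, with points coloured by sequencing round and lines at the group means. The 3 airport pools have 10.1 to 10.5 CPM of esr2b, above all 6 vehicle pools, while esr1 and esr2a overlap between airport and vehicle.

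Mock filter pools had 3.94, 4.38 and 3.72 CPM of esr2b, inside the range of vehicle. The difference of mock from vehicle was 0.10 ± 0.34 (SE, log2) with an adjusted p of 0.929 in edgeR, in a comparison where 0.0136% of genes passed. Airport against mock gave 1.37 ± 0.37 (SE, log2) with an adjusted p of 0.0126, where 17.6% of genes passed. Without vehicle 3, mock 2 and mock 3, the airport difference from mock was 1.39 with an adjusted p of 0.175, with 1 mock pool left, and the airport difference from vehicle was 1.43 with an adjusted p of 0.00305. Leaving out mock 3 alone gave an airport difference from mock of 1.32 with an adjusted p of 0.0550.

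Airport pools also had more esr2b than the mean of harbour and road, by 0.99 ± 0.29 (SE, log2) with an adjusted p of 0.0175 in edgeR, where 21.6% of genes passed. In round 1 alone the 3 airport pools were set against 6 harbour and road pools, and the difference was 1.12 with an adjusted p of 6.93e-04. Without airport 1 the difference over both rounds was 1.01 with an adjusted p of 0.0518. The order of mean esr2b levels was 10.4 CPM in airport, 6.04 in subway, 5.87 in harbour, 5.33 in road, 4.01 in mock and 3.92 in vehicle. Harbour and road did not differ beyond their spread (0.14 ± 0.21 for harbour over road, SE, log2, adjusted p of 0.996 in edgeR). There 0% of genes passed, with 968 genes at an unadjusted p under 0.05 and 3 genes past the threshold in DESeq2. Subway against harbour or road was not tested.

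Taken as whole sites, harbour, road and subway extracts gave no member past the threshold. The esr2b difference from vehicle was 0.56 ± 0.25 in harbour (adjusted p of 0.285), 0.41 ± 0.25 in road (0.423) and 0.55 ± 0.33 in subway (0.580), all log2 with SE in edgeR. In these comparisons 0.615%, 0.353% and 0.145% of genes passed. The harbour pools lay between 3.31 and 10.8 CPM, the road pools between 3.41 and 8.48 CPM and the subway pools at 7.0, 4.77 and 6.36 CPM. All 3 sites overlapped the vehicle range of 2.92 to 5.63 CPM. At an unadjusted p under 0.05 in edgeR stood vtg7 and esr2b in harbour, and vtg7 in road and subway. Of the 22124 genes tested, 3303 in harbour, 3297 in road and 2297 in subway were also under it. DESeq2 called vtg7 in harbour and no member in road or subway, where it gave vtg7 no adjusted p. Against mock, no member passed in harbour or in road with either tool, where 0.203% and 0.0542% of genes passed.

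Within these sites, esr2b differed between filters in the fit that left pools unpaired, but did not pass with the replicate number as a block. The 4 pools of harbour filter 38 had 3.83, 10.8, 8.39 and 8.35 CPM, and the 4 pools of harbour filter 36 had 3.49, 4.42, 3.31 and 4.49 CPM. The first pool of each is of round 1. The 3 round 2 pools of filter 38 were above every filter 36 pool, and its round 1 pool was not. Filter 38 over filter 36 gave 1.00 ± 0.24 (SE, log2) with an adjusted p of 0.0156 in edgeR, where 7.13% of genes passed. This pair of filters was compared after their values had been seen. With the replicate number as a block, the same difference was 0.94 with an adjusted p of 0.0898, and in round 2 alone it was 1.17 with an adjusted p of 5.86e-05. Without harbour 7 or harbour 8 (filter 38, round 2), it was 0.81 and 0.97, with adjusted p of 0.0701 and 0.0540.

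The road filters split in a similar way. The 4 pools of filter 26 had 4.93, 7.44, 6.25 and 8.48 CPM of esr2b, and the 4 pools of filter 28 had 4.91, 3.46, 3.46 and 3.41 CPM, again with the round 1 pool first. Every filter 26 pool was above every filter 28 pool, though the round 1 pools had nearly the same level. Filter 26 over filter 28 gave 0.83 ± 0.23 (SE, log2) with an adjusted p of 0.0328 in edgeR, where 7.53% of genes passed, also a comparison made after the values had been seen. With the replicate number as a block it was 0.85 with an adjusted p of 0.0774, and in round 2 alone it was 1.12 with an adjusted p of 5.70e-05. Pools of these filters with the same number did not all deviate together (r from 0.03 to 0.20), so the numbers may not pair them. Leaving out any 1 of road 2, 3, 4, 6, 7 or 8 gave an adjusted p between 0.0582 and 0.121.

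Against vehicle, filter 38 had 0.97 ± 0.22 more esr2b (SE, log2, adjusted p of 0.00791) and filter 26 had 0.77 ± 0.22 more (adjusted p of 0.0192), both in edgeR. In these comparisons 10.1% and 16.8% of genes passed. In round 2 alone the differences were 1.41 for filter 38 (adjusted p of 4.54e-06) and 1.12 for filter 26 (5.22e-05). The filter 26 call was lost without vehicle 4, vehicle 5, road 2 or road 4, with adjusted p between 0.0543 and 0.0796. Filters 36 and 28 differed from vehicle by -0.02 ± 0.23 and -0.06 ± 0.22 (SE, log2, adjusted p of 0.997 and 0.999 in edgeR), where 0.0588% and 0.0904% of genes passed. The 1-pool filters 32 and 30 had 5.80 and 5.58 CPM, for which no test was made.

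**Figure D2:**
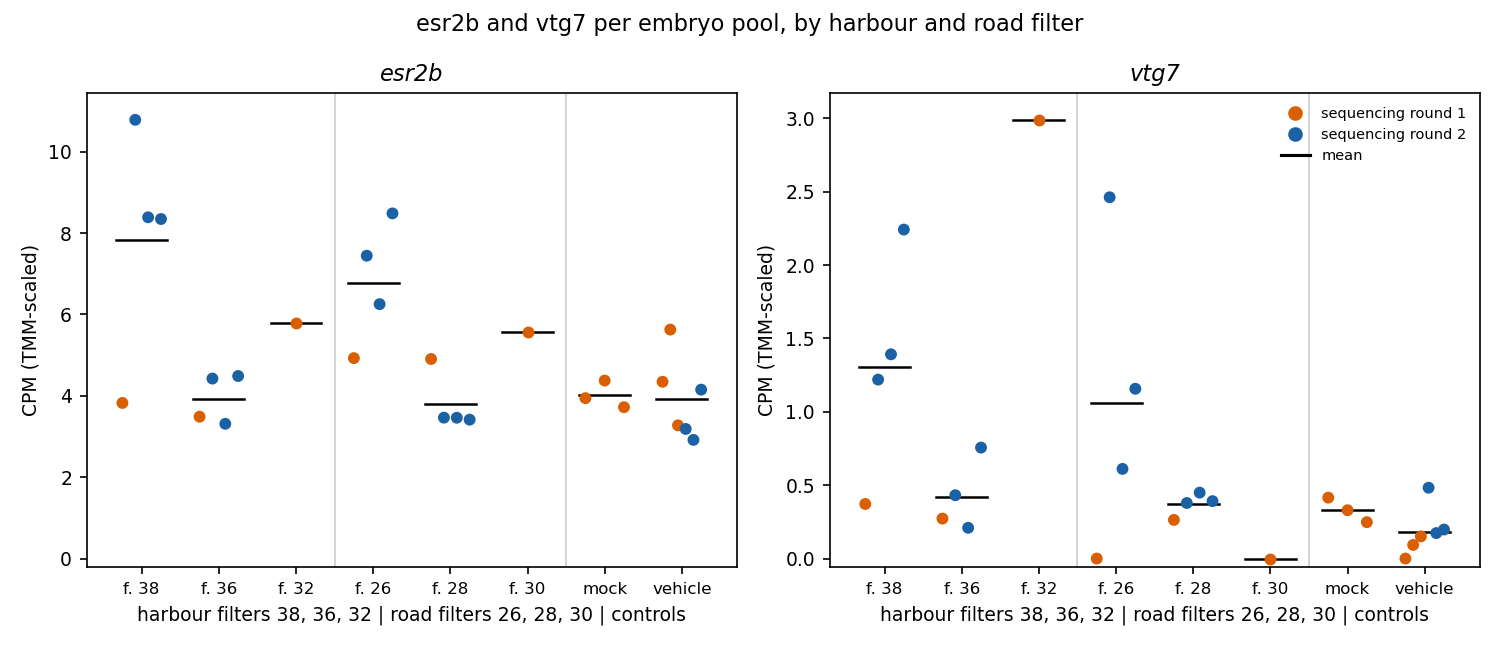
Normalised level (CPM, vertical axis) of esr2b and vtg7 in each pool of harbour filters 38, 36 and 32, road filters 26, 28 and 30, mock and vehicle, with points coloured by sequencing round and lines at the means. Round 2 pools of filters 38 and 26 have 6.25 to 10.8 CPM of esr2b, and their round 1 pools have 3.83 and 4.93 CPM. Pools of filters 36 and 28, of both rounds, have 3.31 to 4.91 CPM.

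The rounds differ in reads mapped to 1 place (78.7 to 79.5% in round 2 and 71.7 to 77.1% in round 1) and in the numbers in the titles. In the round 1 pools of filters 38 and 26, esr2b had 3.83 and 4.93 CPM, inside the round 1 vehicle range of 3.27 to 5.63 CPM. The harbour difference from vehicle was 0.95 in round 2 alone and -0.02 in round 1 alone, and the test of this difference between rounds gave 0.97 ± 0.48 (SE, log2) with an adjusted p of 0.355 in edgeR, where 0.551% of genes passed. For road the values were 0.67 in round 2 alone and 0.22 in round 1 alone. The test between rounds gave 0.45 ± 0.48 (adjusted p of 0.979 in edgeR), where 0% of genes passed and 1156 had an unadjusted p under 0.05. These tests pool all filters of a site, and filters 32 and 30 are in round 1 only. They cannot answer whether filter 38 or filter 26 alone differed between rounds. Levels of cyp1a, a gene of the aryl hydrocarbon receptor list below, also differed between rounds in pools of 1 filter. Round 1 pools of filters 26, 28, 36 and 38 had 378, 198, 247 and 194 CPM. Their round 2 pools had 78.2 to 89.1, 60.4 to 68.3, 38.5 to 58.6 and 84.7 to 99.7 CPM, in the same order. The highest vehicle pool had 36.9 CPM in round 1 and 39.2 CPM in round 2. Fits by filter over both rounds gave all pools of a filter 1 coefficient. The part of round or dose in these values was not tested.

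The 3 genes whose levels followed esr2b most closely over the 33 libraries, after the mean of each round was taken off, were hif1al (Pearson r = 0.94), plvapb (0.93) and slc1a5 (0.93), of 17188 genes compared. These libraries share sites and depth, so the values are descriptions with no test. The gene slc1a5 encodes a transporter of neutral amino acids, and plvapb a membrane protein of blood vessel walls. In airport, hif1al had 610 to 678 CPM, against 157 to 278 CPM in vehicle.

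The other receptors did not pass in any comparison with edgeR over all libraries. The alpha receptor gene esr1 (ENSDARG00000004111) had 0.375, 0.534 and 0.951 CPM in airport pools, against a lowest of 0.101, a median of 0.516 and a highest of 0.772 CPM in vehicle pools, so the groups overlapped. Its airport difference from vehicle was 0.45 ± 0.44 (SE, log2) with an adjusted p of 0.457. The mock pools had 0.208, 0.0470 and 0.455 CPM of esr1, from 5, 1 and 11 counts. Airport over mock was 1.42 ± 0.53 (SE, log2) with an adjusted p of 0.0586 in edgeR and 0.0472 in DESeq2. Without mock 3 or vehicle 3 the adjusted p in edgeR was 0.0313 and 0.0345. In harbour and road, esr1 differed from vehicle by -0.06 ± 0.33 and -0.04 ± 0.32 (SE, log2), and in subway by 0.20 ± 0.43.

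The second beta receptor gene, esr2a (ENSDARG00000016454), had 0.857, 0.588 and 0.951 CPM in airport pools, against a lowest of 0.659, a median of 1.10 and a highest of 1.26 CPM in vehicle pools. The difference was -0.32 ± 0.29 (SE, log2, adjusted p of 0.407 in edgeR), with a 95% interval from -0.89 to 0.24. In harbour it was -0.0004 with an interval from -0.54 to 0.54, in road 0.21 (-0.19 to 0.61) and in subway 0.02 (-0.53 to 0.58). The SE was 0.28 in harbour and 0.20 in road, with 9 pools each. As SE is the change divided by the square root of F, it is imprecise at a change this near 0, and so is the harbour interval. A missed threshold does not show that esr2a was unchanged, and the other intervals give the range of changes that the data allow. Over the 33 libraries esr2a followed esr2b with r = -0.08, and esr1 followed esr2b with r = 0.33, round means taken off. The genes most like esr1 were plagx (r = 0.67), olfm4.1 (0.66) and AMOT (0.65). Those most like esr2a were marchf4l (r = 0.57), pgbd5 (0.55) and wdr13 (0.53).

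**Figure D3:**
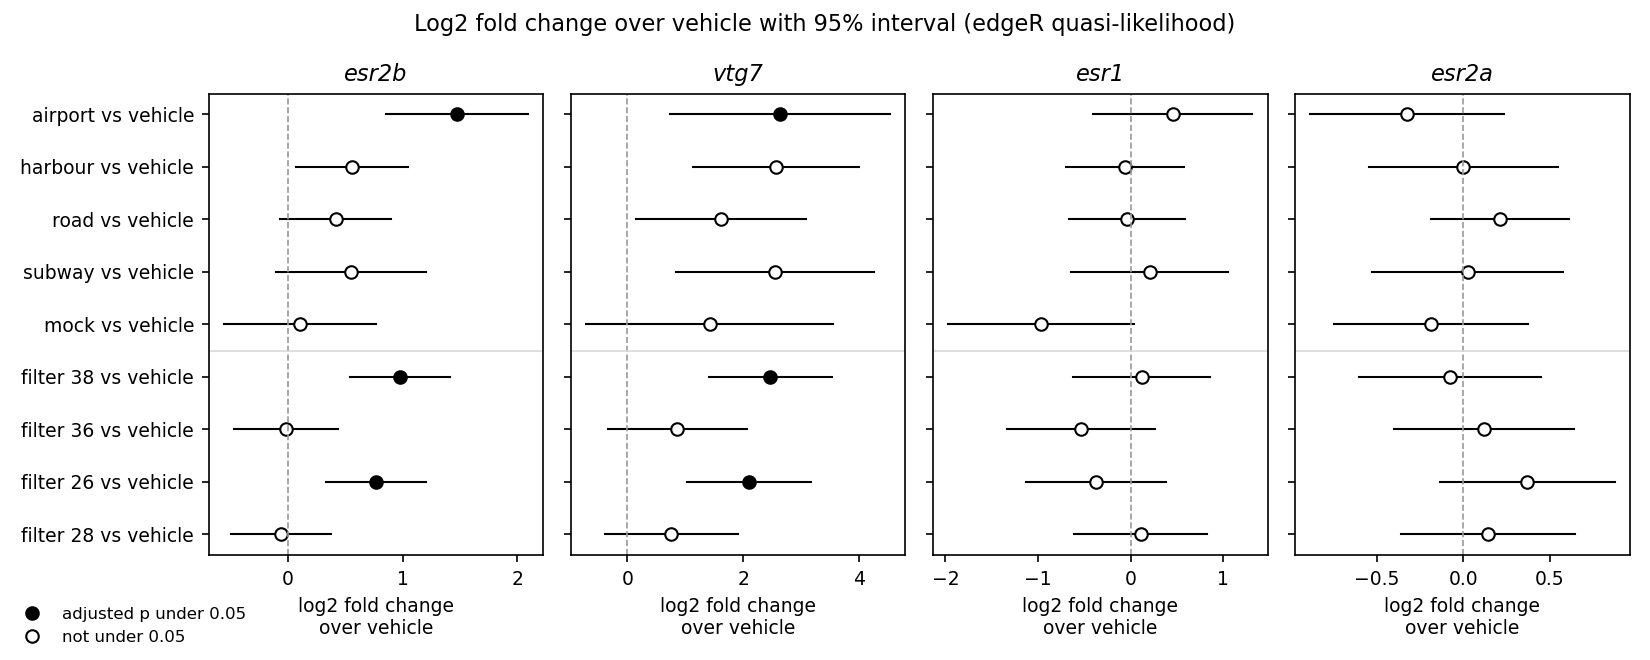
Log2 fold change over vehicle (horizontal axis) of esr2b, vtg7, esr1 and esr2a for each site and for the 4 filters with 4 pools, with bars of 95% intervals and filled points where the adjusted p is under 0.05. Filled points stand at airport, filter 38 and filter 26 for esr2b and vtg7, and at no comparison for esr1 and esr2a.

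Among the vitellogenins, vtg7 (ENSDARG00000092419) had the most counts, and of the sites it passed against vehicle in airport. It had 26, 13 and 19 counts in airport pools, which are 1.39, 0.694 and 0.376 CPM. Vehicle pools had 0, 2, 3, 10, 5 and 6 counts, or a lowest of 0, a median of 0.162 and a highest of 0.483 CPM. Airport 3 lay inside the vehicle range and the other airport pools above it. The difference was 2.64 ± 0.97 (SE, log2) with an adjusted p of 0.0350 in edgeR. The call was lost when any 1 of vehicle 1, 2, 5 or 6, airport 1 or airport 2 was left out, with adjusted p from 0.0521 to 0.180, and in round 1 alone (3.13, adjusted p of 0.0738). It was also lost without vehicle 3, mock 2 and mock 3 (2.68, adjusted p of 0.0561).

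Subway pools had 1.33, 1.80 and 1.07 CPM of vtg7, from 33, 46 and 26 counts. Every subway pool lay above every vehicle pool, and the share of all genes that do so is not given. The difference was 2.55 ± 0.88 (SE, log2), with a p of 0.00660 and an adjusted p of 0.266 in edgeR, so it did not pass over all genes. With the 3 library series in place of the rounds the subway difference was 3.55 (adjusted p of 0.214) for vtg7 and 1.02 (adjusted p of 0.343) for esr2b. As no vehicle pool is in the series of the subway pools, site and series are told apart there by harbour 5 alone. Harbour pools had a lowest of 0.210, a median of 0.756 and a highest of 2.99 CPM, and differed from vehicle by 2.57 ± 0.73 (SE, log2, adjusted p of 0.10). DESeq2 gave 2.71 with an adjusted p of 0.00897 for harbour, and limma with the filter as a random block gave 1.97 with an adjusted p of 0.446. The harbour value was 3.78 in round 1 alone and 1.95 in round 2 alone (adjusted p of 0.167 and 0.273 in edgeR). In round 1, harbour 1 (filter 32) had 65 counts, while harbour 2 and harbour 6 had 5 and 7. Without 1 library at a time the harbour value over both rounds ran from 1.87 to 2.97, with adjusted p from 0.0510 to 0.295. Road pools had a lowest of 0, a median of 0.391 and a highest of 2.46 CPM, and differed by 1.62 ± 0.75 (SE, log2, adjusted p of 0.309 in edgeR). The road value was 0.31 in round 1 alone (adjusted p of 0.993) and 1.063 without road 2 (adjusted p of 0.547).

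Mock pools had 0.415, 0.329 and 0.248 CPM of vtg7, and differed from vehicle by 1.42 ± 1.09 (SE, log2, adjusted p of 0.603 in edgeR). Against mock, the airport difference was 1.22 ± 1.01 (SE, log2, adjusted p of 0.417). In round 1, which holds all mock and airport pools, the vehicle pools had 0, 0.0930 and 0.151 CPM. These folds rest on few counts in the controls.

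By filter, vtg7 and esr2b were called in the same comparisons with vehicle. Filter 38 pools had 0.372, 1.22, 1.39 and 2.24 CPM of vtg7, 2.47 ± 0.54 above vehicle (SE, log2, adjusted p of 0.00611 in edgeR). Filter 26 pools had 0, 2.46, 0.611 and 1.16 CPM, 2.11 ± 0.54 above vehicle (SE, log2, adjusted p of 0.00998). In both filters the lowest pool is that of round 1. Without road 2, which had 84 of the counts, the filter 26 difference was 1.40 with an adjusted p of 0.0986. Filters 36 and 28 differed from vehicle by 0.87 ± 0.61 and 0.76 ± 0.59 (SE, log2, adjusted p of 0.899 and 0.999).

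Directly compared, filter 38 over filter 36 gave 1.61 ± 0.54 for vtg7 (SE, log2, adjusted p of 0.0675 in edgeR), and filter 26 over filter 28 gave 1.34 ± 0.52 (adjusted p of 0.112). In round 2 alone both passed, at 1.83 (adjusted p of 0.00894) and 1.81 (adjusted p of 0.00624). The highest vtg7 level of all libraries, 2.99 CPM from 65 counts, was in the 1 pool of harbour filter 32, whose esr2b level of 5.80 CPM was close to the highest vehicle pool. The 1 pool of road filter 30 had 0 counts of vtg7, which allows up to 3 counts. Over the 33 libraries vtg7 and esr2b had r = 0.57, round means taken off. The genes most like vtg7 were psmd8, a proteasome subunit (r = 0.84), yars1, a tyrosyl-tRNA synthetase (0.83), and pdia6, a protein disulfide isomerase of the endoplasmic reticulum (0.81).

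The remaining vitellogenins were near the limit of detection in every group. The most counts in a library were 13 for vtg1, 6 for vtg2, 25 for vtg3, 2 for vtg4 and 11 for vtg5. For vtg1 (ENSDARG00000092233), airport pools had 2, 6 and 7 counts and subway pools 13, 6 and 3, against 2, 4, 4, 4, 0 and 7 in vehicle pools. The group means of vtg1 lay between 0.140 CPM in road and 0.295 CPM in subway, with vehicle at 0.154 CPM, and all exposed groups overlapped vehicle. For vtg2 (ENSDARG00000055809) the means lay between 0.0488 CPM in airport and 0.121 CPM in subway, with vehicle at 0.0819 CPM, and the ranges overlapped as well.

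The vtg3 gene (ENSDARG00000016448) had 3, 4 and 25 counts in airport pools, against 4, 5, 3, 4, 2 and 4 in vehicle pools. The pool with 25 counts is the deepest library, and its level of 0.495 CPM was the highest of vtg3. Vtg4 (ENSDARG00000078429) was detected in 3 libraries, with 1 count in harbour 1, 2 counts in road 7 and 1 in a further road pool, and it had 0 counts in all 6 vehicle libraries. Those 0 counts allow up to 3 counts over the vehicle group, or 0.0216 CPM, so no difference was detectable at this depth. Floors of this kind cover counting error only.

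In vtg5 (ENSDARG00000092126), counts clustered in 1 filter. The round 2 pools of filter 38 had 11, 7 and 4 counts and its round 1 pool had 0. Vehicle pools had 2 counts in vehicle 1 and 0 in the other 5. Filter 36 pools had 2, 1, 0 and 0 counts, filter 26 pools 0, 4, 3 and 3, and mock pools 1, 2 and 3. Without the filter on low counts, vtg1 to vtg5 were tested in the 5 comparisons of a site or mock with vehicle, and 0 of these 25 edgeR tests passed. There 1 had an unadjusted p under 0.05, vtg5 in harbour (p of 0.0153, adjusted p of 0.241), and DESeq2 was not run on these genes. In the same fit by filter, vtg5 in filter 38 over vehicle had an adjusted p of 0.0372, a test added after the values had been seen.

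**Figure D4:**
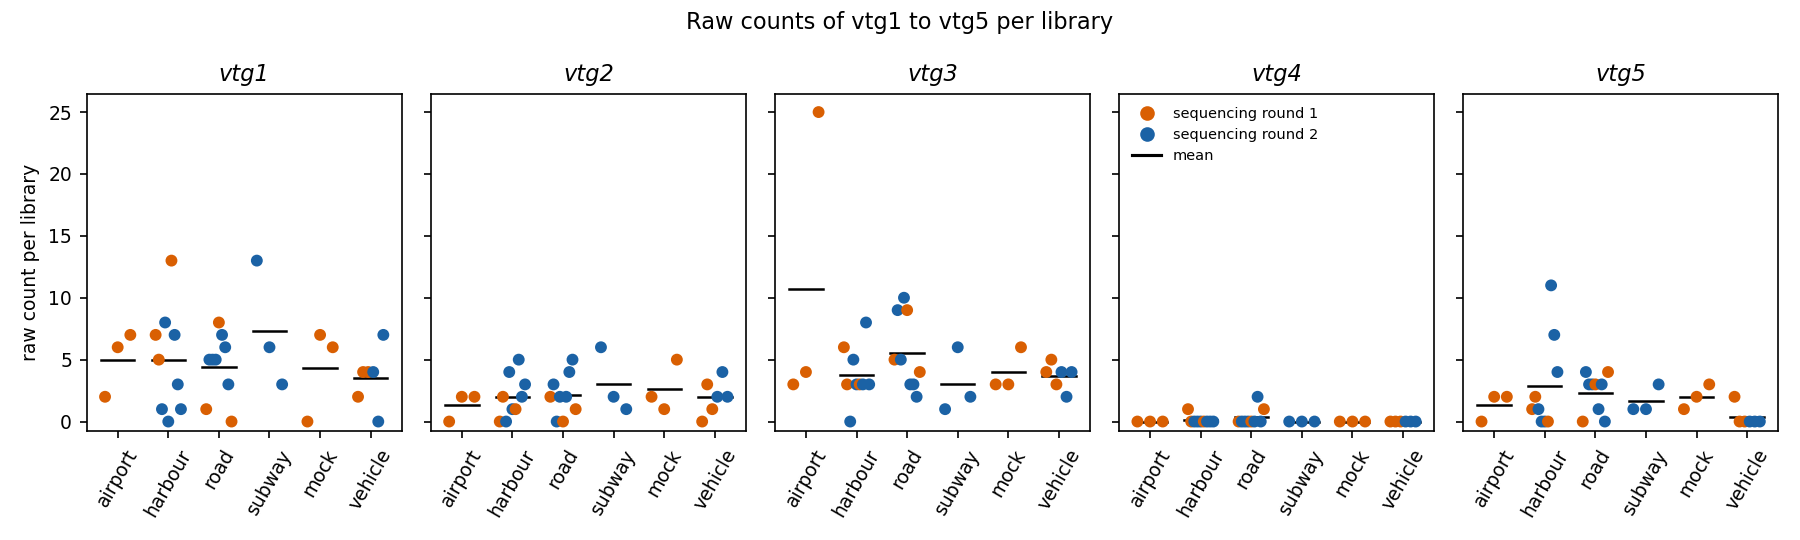
Raw read counts per library (vertical axis) of vtg1 to vtg5, grouped by site and control, with points coloured by sequencing round and lines at the group means. Apart from 25 counts of vtg3 in the deepest airport library, no library has more than 13 counts of any of these genes, and vtg4 is at 0 in all vehicle pools.

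Other genes of the pathway were taken from lists of fixed membership, whose counts are given as passing genes out of those tested. Of the further estrogen targets, 1 of the 5 listed had enough counts for a test, and it passed in no site. Of 6 related receptors tested (among them the estrogen-related receptors and the androgen receptor), 0 passed in any site against vehicle, with a median log2 change of -0.15 in airport, against -0.03 over all genes. Of all genes tested, 33.5% passed in airport against vehicle. In other comparisons 3 of them passed in edgeR, and they are named after their values were seen. Esrrgb was higher in filters 26 and 38 than in vehicle, by 1.05 ± 0.30 and 0.99 ± 0.30 (SE, log2, adjusted p of 0.0177 and 0.0356), where 16.8% and 10.1% of all genes passed. Esrra was lower in airport than in harbour and road (-0.36 ± 0.12, adjusted p of 0.0324), and esrrb lower in filter 38 than in filter 36 (-0.50 ± 0.15, adjusted p of 0.0475). Among 7 receptor cofactors, 1 passed in airport against vehicle, where 33.5% of all genes passed. It was foxa3, a forkhead factor, at 0.39 ± 0.15 (SE, log2, adjusted p of 0.0430 in edgeR).

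Steroid synthesis genes changed in both directions in airport pools: 5 of 13 rose and 1 fell, where 33.5% of all genes tested passed, with a list median of 0.07 log2. The 17-beta-hydroxysteroid dehydrogenase genes hsd17b3 and hsd17b12a had 2.36 ± 0.11 and 92.9 ± 23.6 CPM in airport (SD, n = 3), against 0.921 ± 0.22 and 35.4 ± 12.4 CPM in vehicle (SD, n = 6). Both rose, by 1.53 ± 0.31 and 1.22 ± 0.31 on the log2 scale (SE, adjusted p of 5.99e-04 and 0.00345 in edgeR). Hsd17b4, of the same family by name, fell by 0.55 ± 0.14 (adjusted p of 0.00396), with means of 28.6 CPM in airport and 46.8 CPM in vehicle. Star, which carries cholesterol into mitochondria, rose by 0.59 ± 0.19 in airport (adjusted p of 0.0187) and by 0.58 ± 0.14 in harbour (adjusted p of 0.0490), the 1 gene of the list past the threshold there. None passed in road, subway or mock. By filter, 4 of 13 passed as higher in filter 26, and 2 as higher and 1 as lower in filter 38, where 16.8% and 10.1% of all genes passed.

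Genes that handle yolk and its lipids moved both ways in airport pools, with 5 of 11 higher and 4 lower, where 33.5% of all genes tested passed. By filter, 5 were higher and 3 lower in filter 26, and 6 higher and 1 lower in filter 38, where 16.8% and 10.1% of all genes passed. Apobb.1 and apoeb, which encode apolipoproteins of the yolk syncytial layer and other tissues, rose by 0.83 ± 0.13 and 1.48 ± 0.29 (SE, log2, adjusted p of 7.55e-05 and 3.74e-04 in edgeR). A further apolipoprotein B gene, apobb.2, fell by 3.37 ± 0.90 (adjusted p of 0.00478), with 1.27 ± 1.39 CPM in airport and 14.9 ± 4.93 CPM in vehicle (SD, n = 3 and 6). The lipoprotein receptor gene vldlr fell by 0.41 ± 0.09 (adjusted p of 6.68e-04). Cathepsins, the lysosomal proteases that cut yolk proteins, split: ctsla rose by 1.02 ± 0.21 and ctsl.1 fell by 1.18 ± 0.24 (adjusted p of 6.45e-04 and 4.82e-04). Likewise ctsd rose by 0.67 ± 0.16 and ctsbb fell by 1.24 ± 0.29 (adjusted p of 0.00168 and 0.00203). In subway, apobb.1 was the 1 gene of the list past the threshold, at 0.61 ± 0.13 (adjusted p of 0.0499).

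Hormone genes of the reproductive axis rose in airport pools in 3 of 5 tested: gnrh2 by 1.49 ± 0.41, cga by 0.89 ± 0.28 and gnrh3 by 0.75 ± 0.27 (SE, log2, adjusted p of 0.00564, 0.0145 and 0.0285 in edgeR), where 33.5% of all genes passed. The gnrh genes encode gonadotropin-releasing hormones and cga the shared alpha subunit of pituitary glycoprotein hormones. None passed in harbour, road, subway or mock. By filter, 2 of 5 passed as higher in filter 26 and 1 of 5 in filter 38, where 16.8% and 10.1% of all genes passed.

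Markers of the tissues where these genes are known to act were given beside them. Of 24 liver genes tested, 8 were higher and 6 lower in airport than in vehicle, where 33.5% of all genes passed. In filter 26, 4 were higher and 7 lower, and in filter 38, 4 were higher and 1 lower, where 16.8% and 10.1% of all genes passed. Fabp10a, a liver fatty acid binding protein, had 150 ± 30.8 CPM in airport and 259 ± 54.8 CPM in vehicle, while fgb, a fibrinogen chain, had 206 ± 11 and 96.0 ± 17.4 CPM (SD, n = 3 and 6). The summed liver level was 9367 to 11021 CPM in airport and 8595 to 10490 CPM in vehicle, with 0 liver genes at 0. Of 10 radial glia genes, 1 was higher (glula) and 4 were lower (gfap, fabp7a, her4.2 and slc1a2b) in airport, where 33.5% of all genes passed. The summed level of the list was 2104 to 2398 CPM in airport and 1673 to 2058 CPM in vehicle. That sum is dominated by glula, with a mean of 1221.5 CPM in airport and 503 CPM in vehicle. The means of the 4 lower genes, in the order named, were 116, 123, 9.88 and 505 CPM in airport. In vehicle they were 190, 202, 16.1 and 679 CPM.

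Egg envelope and oocyte genes were hardly detected, with summed levels of 6.14 to 8.09 CPM over 25 genes in airport and 4.17 to 9.35 CPM in vehicle, and 6 and 4 of the genes at 0. Of 8 tested, 1 was higher and 1 lower in airport than in vehicle, where 33.5% of all genes passed. These were the germ cell genes sycp3 and ddx4, at 1.44 ± 0.47 and -1.03 ± 0.29 (SE, log2, adjusted p of 0.0195 and 0.00727 in edgeR). By filter, 0 of 8 passed in filter 26 and 1 of 8, as higher, in filter 38, where 16.8% and 10.1% of all genes passed. The part of these cell types in the results for vtg7 and esr2b was not tested. A list of 8 genes held the aryl hydrocarbon receptor gene ahr2 and targets of this receptor, which responds to combustion products. Against vehicle, 3 of 8 passed in airport, 6 of 8 in harbour, 6 of 8 in road, 1 of 8 in subway and 0 of 8 in mock. Of all genes, 33.5%, 0.615%, 0.353%, 0.145% and 0.0136% passed in these comparisons, in the same order. The airport genes were ahr2, cyp1c2 and ahrra, while cyp1a, cyp1b1 and cyp1c1 did not pass there. In harbour and road, ahr2 was also among the 6. By filter, 7 of 8 passed as higher in filter 26, 6 of 8 in filter 38, 4 of 8 in filter 28 and 4 of 8 in filter 36. There 16.8%, 10.1%, 0.0904% and 0.0588% of all genes passed, in the same order. Airport, harbour, road and subway, and the filters within them, share the vehicle libraries, so these counts are not independent of each other.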

How the data were processed

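Poly-A RNA of whole-embryo pools (10 embryos each) was sequenced with a strand-marking kit, per the labels' protocols. The deposited gene table holds raw counts per gene and library. Reads mapped to 1 place and duplicate reads are given in percent in a second deposited table. The submitters' processing notes name CASAVA, BWA and GRCz11 and no versions. As for the counting program and its use of strand, neither is given in the sources used here.

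Groups came from titles and treatment labels, and rounds from library numbers and the quality table. Counts (filterByExpr left 22124 genes) were scaled by TMM and fitted with edgeR 4.0.16 in R 4.3.3, with a coefficient per site and round as covariate, and, in a further fit, a coefficient per filter. All 33 libraries entered. The p-values were adjusted over the 22124 genes by Benjamini-Hochberg, with a threshold of 0.05. SE is the log2 fold change divided by the square root of F, and 95% intervals are normal ones from it. CPM are TMM-scaled, and a prior count of 2 was added for log2 CPM. The fit by site was checked on simulated data, with changes placed only in airport pools and in genes above a set mean count. No effect of round or filter was simulated there. Alternatives used DESeq2 1.42.0, limma 3.58.1, other scaling, filters, batch terms and library subsets, and left out each library in turn. Replicates are separate pools of embryos, and whether pools came from separate matings is not stated, so p-values measure the spread between pools.

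Members and lists were chosen with earlier results of these data known. All members are named; so are, per list and direction, up to 4 genes that passed in a site against vehicle, and the 3 genes most correlated with each tested member (mean log2 CPM of at least 1). The deposited table names 17766 genes, and a name table added symbols of 5860 more. Same-numbered pools of filters 36 and 38 deviated together (r from 0.13 to 0.39 in 4 pairs, where number 1 is the round 1 pool in both filters), so their numbers were taken to pair them; of the other pairs of groups, filters 38 and 26 met this rule as well.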

Additional observations from a re-analysis of the deposited data

Results flagged for a closer look

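Single libraries were set against the rest of their group in 59 groups of 4 to 10, and 8 had a highest value far from the others. Chance gives about 1 in 20 groups for normal values in separate groups. Here groups of sites and filters overlap, and where all other pools have 0 counts any count is flagged. The 8 can therefore not be judged by that rate. Most of the 8 rest on few counts. In vtg1, harbour 6 had 0.691 CPM from 13 counts, with the next harbour pool at 0.335 CPM. In vtg3, road 5 had 0.296 CPM among filter 28 pools, from 9 counts. In vtg4, harbour 1 had 0.0460 CPM among harbour pools and road 7 had 0.0528 CPM among filter 28 pools, from 1 and 2 counts, with the others at 0. In vtg5, vehicle 1 had 0.114 CPM from 2 counts, with the other vehicle pools at 0.

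In vtg7, road 2 had 2.46 CPM from 84 counts, and the next road pool had 1.16 CPM. In esr1, harbour 7 had 0.876 CPM from 23 counts, with the next filter 38 pool at 0.489 CPM. In esr2b, road 5 had 4.91 CPM from 149 counts, with the other filter 28 pools at 3.46 CPM or less. Road 5 is the round 1 pool of its filter, and the part of the round was not tested.

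In esr2b the difference itself between exposures passed in 3 tests. Airport exceeded harbour and road by 0.99, filter 38 exceeded filter 36 by 1.00 and filter 26 exceeded filter 28 by 0.83, all on the log2 scale. The comparisons of filters were added after their values had been seen, and both were lost with the replicate number as a block. For filters 26 and 28 the numbers were not shown to pair the pools.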

How the results depend on the processing

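No call changed direction under the alternatives run. The number of members past the threshold, of 4 tested in the fit reported, moved as follows. In that fit 0.615%, 33.5%, 17.6%, 21.6%, 16.8%, 7.13% and 7.53% of all genes passed, in the order of the comparisons given here. The counts of all genes moved between fits as well and are given below. In harbour against vehicle it was 0, and 1 (vtg7) with DESeq2. In airport against vehicle it was 2, and 1 (esr2b) with no batch term, without vehicle 3, mock 2 and mock 3, and in round 1 alone; leaving out each library in turn gave 1 to 2. In airport against mock it was 1, but 0 without vehicle 3, mock 2 and mock 3 and 2 with DESeq2, and each library in turn gave 1 to 2. In airport against harbour and road it was 1, and each library in turn gave 0 to 1. In filter 26 against vehicle it was 2, and each library in turn gave 0 to 2. In filter 38 against filter 36 and filter 26 against filter 28 it was 1, but 2 in round 2 alone and 0 with the replicate block, and each library in turn gave 0 to 2 in both. The cause of these changes was not tested. Fits that left out libraries also held fewer of them.

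The call of esr2b in airport against vehicle held in 33 of 33 fits without 1 library and in 7 of 7 other fits, with log2 differences from 1.22 to 1.69. In filter 38 against vehicle, esr2b and vtg7 held in 33 of 33 and 3 of 3. For sites against vehicle the paired analysis, with the replicate block, gave 0.51 (adjusted p of 0.485) for esr2b in harbour and left 0 members past the threshold in harbour, road, subway and mock; it could not be fitted for airport. Numbers did not pair vehicle with any filter.

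Counts of genes over all alternatives ran wider: 4107 to 7772 in airport against vehicle (7411 in the fit reported), 10 to 363 in harbour (136), 15 to 269 in harbour round 2 against round 1 (122), 3 to 267 in road (78), 6 to 156 in subway (32), 0 to 934 in mock (3), 2040 to 7083 in filter 26 (3711), 914 to 6298 in filter 38 (2229), 7 to 36 in filter 28 (20) and 7 to 85 in filter 36 (13). Between groups they were 318 to 4447 in airport against mock (3888), 2323 to 5378 in airport against harbour and road (4771), 1 to 565 in harbour against mock (45), 1 to 513 in road against mock (12), 1 to 5229 in filter 38 against 36 (1578) and 2 to 5806 in filter 26 against 28 (1665). Depth limits vtg1 to vtg5, with at most 25 counts in a library.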
